A study of Mus musculus with 16 samples.

Results

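The 8 tumour libraries of mice given QH-II-066 were compared with the 8 libraries of mice that were not given it, which together make up all 16 libraries of the series. Membership followed the treatment label alone, and radiation entered the model as a second, additive factor. The drug-treated libraries comprised 4 of mice given QH-II-066 and 4 of mice given 5 Gy of X-rays and then QH-II-066. The drug-free libraries comprised 4 labelled untreated and 4 of mice given 5 Gy. All tumours grew from B16F10-GP, a derivative of the pigmented C57BL/6 mouse melanoma line B16F10, so every group rests on the same cell line. The cells were placed with Matrigel on the flanks of female C57BL/6 mice aged 6 to 8 weeks. QH-II-066, known here by its code name, was injected intraperitoneally at 10 mg/kg daily for 7 days from day 10, and radiation was a 5 Gy dose to the right flank on day 10. In the combined group the dose of X-rays preceded the drug on that day. The protocol gave control mice a vehicle, while their samples are labelled untreated. The labels do not give the flank that was sampled or whether each of the 4 libraries in a group stands for its own mouse. The p-values therefore measure the spread between these libraries, which may be technical.

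The study's title concerns GABA-A receptors in melanoma cells. These receptors are chloride channels built from several subunits and opened by the transmitter GABA, and drugs that bind beside the GABA site can raise the current they carry. A bulk tumour library mixes RNA of the melanoma cells with RNA of host cells, so fewer cells of a type and less RNA per cell cannot be told apart. Messenger RNAs differ widely in length. Those of ribosomal proteins and of respiratory chain subunits are short, and those of many chromatin regulators and DNA damage kinases are long, so a difference that follows transcript length touches these gene groups in opposite directions.

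Total counts ranged between 6994198 and 40799942 in drug-treated libraries and between 25017744 and 31680098 in drug-free ones, and the log2 totals did not differ beyond their spread (exact permutation p = 0.879). The 15 pigmentation genes, markers of the labelled melanoma, summed to between 25179.7 and 34247 CPM, counts scaled to library size, in drug-treated libraries and between 22389.5 and 35659.7 CPM in drug-free ones. Skin RNA was present in 5 libraries, namely replicates 2, 3 and 4 of 5 Gy with QH-II-066 and replicates 2 and 4 of 5 Gy, in which the keratins Krt5 and Krt14 summed to between 113 and 1239 CPM, against at most 3.68 CPM elsewhere. Muscle markers, 17 tested genes, summed to between 48.0 and 1773 CPM in drug-treated libraries and between 41.6 and 3642 CPM in drug-free ones.

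Before any drug difference is given, 2 libraries need to be named, because they lay farthest on the side of the other drug group on the main axis of variation described below. They are replicate 4 of the untreated group and replicate 3 of the QH-II-066 group, at 26.9 and -21.1 on that axis. Less far out, replicate 3 of 5 Gy (5.73) and replicates 2 and 3 of 5 Gy with QH-II-066 (-6.3 and -2.6) also lay across 0. Counts of calls over all genes and for some gene groups are given with and without each.

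No gene passed the threshold in the additive model of all 16 libraries. Of 16101 genes tested with edgeR's quasi-likelihood test, 0 were higher and 0 lower in drug-treated tumours at an adjusted p under 0.05 (0% of the genes tested), and the smallest adjusted p was 0.131. At an unadjusted p under 0.05 there were 4249 genes (26.4%), 1957 higher (12.2%) and 2292 lower (14.2%) in drug-treated tumours. DESeq2 called 598 genes higher (3.71%) and 758 lower (4.71%). It gave some genes no adjusted p, and these count as not called in its shares and in the overlap below. The weighted limma-voom fit gave 2406 higher (14.9%) and 2853 lower (17.7%). Of the genes DESeq2 called, 98.7% were called by limma-voom, and of those limma-voom called, 25.4% were called by DESeq2. The weights of limma-voom, estimated from the spread of each library, were lowest for untreated replicate 4 (0.368) and QH-II-066 replicate 3 (0.524).

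Leaving out either of these libraries gave edgeR calls. Each was named for lying on the side of the other drug group, so leaving it out widens the drug difference on the main axis by construction. Calls in these fits, here and for the gene groups below, are therefore a description. Without untreated replicate 4, 1624 genes were higher (10.1%) and 1637 lower (10.2%). Without QH-II-066 replicate 3, 978 were higher (6.07%) and 981 lower (6.09%). The 1772 genes called in both fits were 54.3% and 90.5% of the calls in those fits. Leaving out each of the 14 other libraries in turn gave 0 calls by edgeR, with between 2869 and 4754 genes at an unadjusted p under 0.05.

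**Figure D1:**
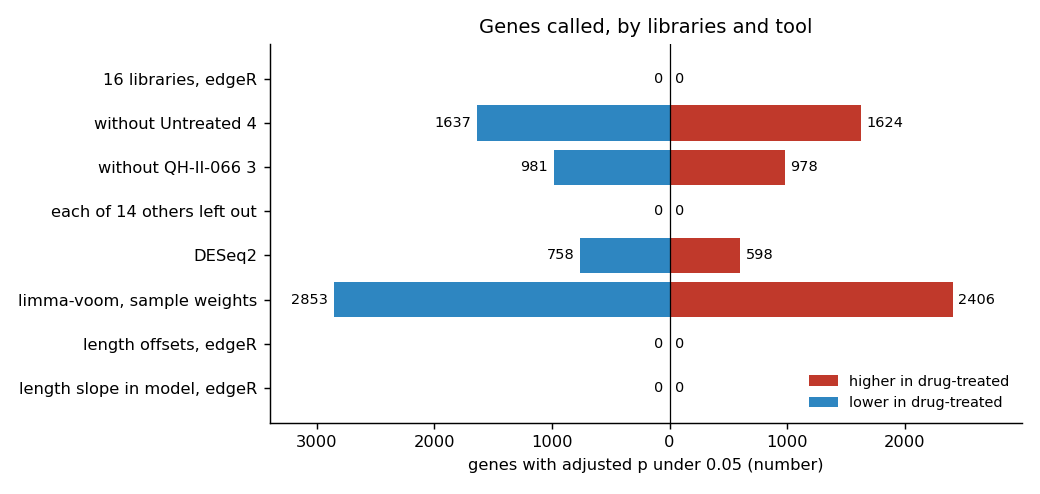
Number of genes higher (right) and lower (left) in drug-treated than in drug-free tumours at an adjusted p under 0.05, by the libraries left out and the tool. Calls number 0 with all 16 libraries in edgeR and 1624 higher and 1637 lower once untreated replicate 4 is left out.

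Within each radiation level, edgeR also called 0 genes. Tumours given QH-II-066 alone against untreated tumours had 987 of 14762 genes at an unadjusted p under 0.05 (6.69%). Tumours given 5 Gy with QH-II-066 against those given 5 Gy had 3021 of 15275 (19.8%). These comparisons share no library, and over 14499 genes tested in both the log2 fold changes had the same sign for 69.3%, with a rank correlation across genes of 0.34, as a description since genes are not independent. The interaction of drug and radiation gave 0 calls by edgeR, with 1121 genes at an unadjusted p under 0.05 (6.96%), while DESeq2 called 2 genes higher and 59 lower. The length gradient described next ran the same way at both radiation levels.

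Short genes lay higher and long genes lower in drug-treated tumours. The deposited table gives each gene's length as the summed length of its annotated exons, and the tested genes were divided into 5 equal bins by it. In the shortest bin, with a median length of 1119 bases, the median log2 fold change of drug-treated over drug-free tumours was 0.31. In the next bins it was 0.09, -0.04 and -0.11, and in the longest, with a median length of 8463 bases, it was -0.22. The same order was seen in unirradiated tumours, where the median was 0.30 in the shortest and -0.18 in the longest bin, and in irradiated tumours, where it was 0.33 and -0.25.

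At an unadjusted p under 0.05, the shortest bin held 889 genes higher and 47 lower in drug-treated tumours, and the longest bin held 85 higher and 1151 lower. Without untreated replicate 4, the genes past an adjusted p of 0.05 were split the same way, with 788 higher and 23 lower in the shortest bin and 53 higher and 908 lower in the longest. Without QH-II-066 replicate 3 these counts were 514 and 8 in the shortest bin and 31 and 580 in the longest. The gradient was present at every level of expression. Among the most highly expressed genes the median log2 fold change was 0.40 in the shortest and -0.22 in the longest bin, and among the most lowly expressed it was 0.28 and -0.14.

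**Figure D2:**
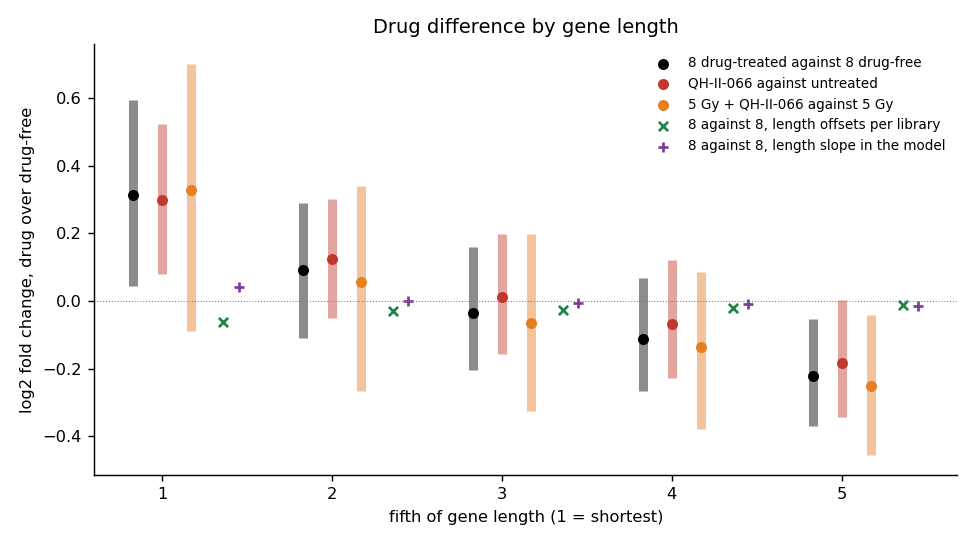
Log2 fold change of drug-treated over drug-free tumours by bin of gene length, as medians (points) with quartiles (bars) for all libraries, for unirradiated and for irradiated tumours. Medians fall with length in each, and lie between -0.06 and 0.04 in both length-corrected fits (crosses and plus signs).

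Across genes the rank correlation of the log2 fold change with exon length was -0.46, and -0.59 among the 9770 genes with a mean log2 CPM above 3. Among protein-coding genes it was -0.51 with the length of the coding sequence, -0.32 with the length of the 3' UTR and -0.14 with that of the 5' UTR, which are lengths from the GENCODE M21 annotation. Coding and 3' UTR length each went with a part of the gradient. Genes short in both had a median log2 fold change of 0.32 (1924 genes), genes with a short coding sequence and a long 3' UTR one of -0.01 (1320 genes), those with a long coding sequence and a short 3' UTR one of -0.14 (1389 genes) and those long in both one of -0.27 (1709 genes). Base composition moved with the fold change less closely, with a rank correlation of 0.15 with GC content. Mean expression had one of -0.02 over all libraries, but of -0.14 in unirradiated and 0.18 in irradiated tumours.

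The same axis separated the libraries. A gene length slope was computed for each library, as the change in its deviation in log2 CPM from the mean of all libraries per doubling of gene length, using the 9770 genes whose mean log2 CPM exceeded 3. In tumours given QH-II-066 the slopes of replicates 1 to 4 were -0.25, -0.12, 0.13 and -0.12, and in untreated tumours they were 0.08, 0.14, 0.23 and -0.18. In tumours given 5 Gy with QH-II-066 they were -0.25, 0.02, -0.02 and -0.11, and in those given 5 Gy they were 0.20, 0.16, -0.05 and 0.12. A negative slope means that a library held relatively more of its counts in short genes, and 6 of 8 drug-treated libraries had a negative slope, against 2 of 8 drug-free libraries.

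The slope averaged -0.09 ± 0.13 in drug-treated and 0.09 ± 0.14 in drug-free libraries (SD, n = 8 each). The difference was -0.18, with a two-sided exact permutation p of 0.0261 over all 4900 ways of placing the drug label within radiation levels, for which the smallest possible p is 0.000408. Adjusted over the 4 library measures tested (length slope, GC slope, the first principal component and depth), the p of this permutation test was 0.0556, above the threshold. The groups overlapped, since QH-II-066 replicate 3 lay among the drug-free libraries and untreated replicate 4 among the drug-treated. Replicate 3 of 5 Gy, at -0.05, also lay below replicates 2 and 3 of 5 Gy with QH-II-066, at 0.02 and -0.02. Without QH-II-066 replicate 1 the difference was -0.15 and its exact permutation p, unadjusted, was 0.0502. Within unirradiated tumours it was -0.16 (exact permutation p = 0.257) and within irradiated tumours -0.20 (exact permutation p = 0.0857), where 4 against 4 libraries cannot give a p below 0.0286.

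**Figure D3:**
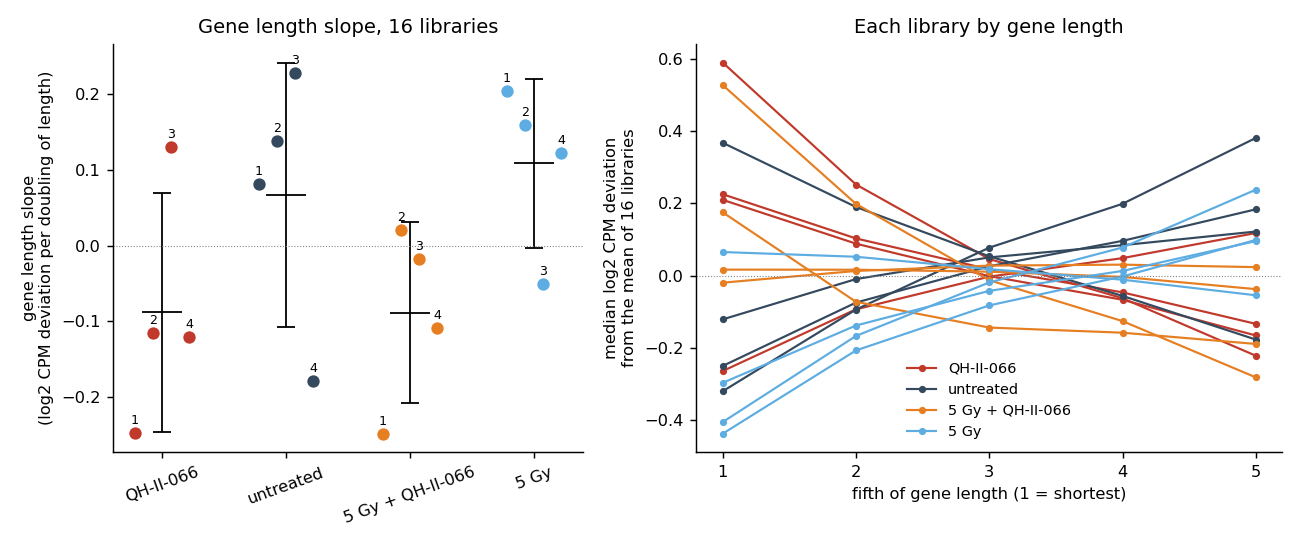
Left, gene length slope of each library (points, with replicate numbers) by group, with the group mean and SD (n = 4). Right, median deviation in log2 CPM of each library from the mean of 16 libraries, by bin of gene length, where QH-II-066 replicate 3 lies at -0.27 in the shortest bin and untreated replicate 4 reaches 0.37.

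The first principal component of log2 CPM held 50.9% of the variance between libraries and the second 21%. Its position correlated with the length slope at Pearson r = -0.986 and Spearman rho = -0.982 over 16 libraries (permutation p = 1e-05 for both, the smallest that the permutations can give), and at r = -0.979 without QH-II-066 replicate 1 and 5 Gy with QH-II-066 replicate 1. Within drug-treated libraries r was -0.969, and within drug-free libraries it was -0.998. The component and the slope are computed from the same counts. The GC slope of a library, defined in the same way on GC content, had an r of -0.883 with the length slope, and its drug difference of 0.10 per 10 points of GC had an exact permutation p of 0.0849. The extraction protocol asked for a DV200, the share of RNA fragments longer than 200 nucleotides, above 0.3, with no value per library, so the part of RNA quality in the gradient was not tested.

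Gene groups with short and with long members lay on opposite sides of 0, and the part of length in each was not tested beyond the corrections given below. All 80 genes of the cytosolic ribosomal proteins, which build the subunits of the ribosome, were tested, with a median length of 1560.5 bases. Of these, 79 had a log2 fold change above 0, against 47.7% of all tested genes (52.3% lay below 0), 71 were higher at an unadjusted p under 0.05 and 0 lower, and the median was 0.61, against -0.02 over all tested genes. At that p, 12.2% of all tested genes were higher and 14.2% lower, and the counts of the next groups stand beside the same shares. Their summed CPM had a lowest, median and highest value of 60486, 97083 and 146023 in drug-treated libraries and of 49779.5, 61313 and 105865 in drug-free libraries. QH-II-066 replicate 3 was the lowest drug-treated library and untreated replicate 4 the highest drug-free one. Rpl41 had a lowest, median and highest level of 382, 795 and 1868 CPM in drug-treated tumours and of 279, 359 and 801 CPM in drug-free tumours, a log2 fold change of 1.21 ± 0.33 (SE). Levels of 3 drug-treated libraries, both replicates 1 and replicate 4 of the combined group, exceeded all drug-free ones. Ribosomal protein genes have many near-identical pseudogenes, so their counts are uncertain.

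Subunits of oxidative phosphorylation encoded in the nucleus lay in the same direction. Of 75 tested genes with a median length of 1534 bases, 70 had a log2 fold change above 0 and 58 were higher at an unadjusted p under 0.05, with 0 lower and a median of 0.55. The members with the smallest p were Atp5l (0.82 ± 0.21), Ndufa4 (0.64 ± 0.17), Atp5e (1.23 ± 0.33) and Cox7a2 (0.71 ± 0.19), which encode subunits of the ATP synthase (Atp5l, Atp5e) and of the respiratory chain. Mitochondrial ribosomal proteins had 50 of 51 genes above 0, 34 higher and 0 lower at that p and a median of 0.39. Among them Mrpl33 (0.76 ± 0.23) and Mrpl13 (0.65 ± 0.20) have exon lengths of 7326 and 7936 bases in the table, in which the exons of all annotated transcripts are added, and their annotated exons overlap other genes. Proteasome subunits, which form the protease that degrades ubiquitin-tagged proteins, had 29 of 31 above 0, 12 higher and 0 lower, with a median of 0.25 and Psmb5 at 0.66 ± 0.22. Without untreated replicate 4, edgeR called 67 cytosolic ribosomal, 58 oxidative phosphorylation, 32 mitochondrial ribosomal and 16 proteasome genes higher, against 10.1% of all tested genes. Without QH-II-066 replicate 3 it called 65, 52, 27 and 5 of them higher, against 6.07% of all tested genes. In both fits it called 0 genes of these groups lower, against 10.2% and 6.09% of all tested genes.

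Long genes formed the other side. Of 32 large chromatin regulators and other giant proteins, with a median length of 13836 bases, 31 had a log2 fold change below 0, 21 were lower at an unadjusted p under 0.05 and 1 was higher, and the median was -0.40. The nuclear receptor corepressor Ncor1 (-0.48 ± 0.14), the ubiquitin ligase Birc6 (-0.49 ± 0.15) and the chromatin remodeller Chd9 (-0.56 ± 0.17) were among the members with the smallest p. Without untreated replicate 4, edgeR called 17 members lower and 1 higher, and without QH-II-066 replicate 3 it called 17 lower and 0 higher. Over all tested genes, 10.2% were called lower and 10.1% higher in the former fit, and 6.09% and 6.07% in the latter.

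DNA damage signalling and repair genes had 21 of 29 members below 0, 12 lower and 1 higher at an unadjusted p under 0.05, and a median of -0.24. Atm, the kinase that responds to DNA double-strand breaks, had 8.04, 14.2, 46.9 and 14.6 CPM in replicates 1 to 4 of QH-II-066 tumours and 40.2, 42.6, 71.3 and 11.7 CPM in untreated tumours. It had 5.89, 26.02, 23.1 and 17.7 CPM in tumours given 5 Gy with QH-II-066 and 63.4, 47.8, 20.4 and 38.9 CPM in those given 5 Gy. The groups overlapped, with untreated replicate 4 and 5 Gy replicate 3 low among drug-free libraries and QH-II-066 replicate 3 high among drug-treated ones, and the log2 fold change was -1.11 ± 0.41. With the length slope in the model it was -0.01, a fit that also removes drug difference where drug and length coincide. Brca2 (-0.50 ± 0.16), Trp53bp1 (-0.45 ± 0.15) and Fanci (-0.88 ± 0.32), which act in break repair and crosslink repair, lay lower as well. In this group edgeR called 8 members lower and 1 higher without untreated replicate 4, against 10.2% lower and 10.1% higher of all tested genes. It called 5 lower and 0 higher without QH-II-066 replicate 3, against 6.09% and 6.07%.

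Length was corrected in 2 ways. In one, smooth length offsets were fitted for each library, and in the other, the length slope of each library was a covariate of the model. With offsets, 0 genes passed in edgeR (smallest adjusted p 0.178) and 3375 had an unadjusted p under 0.05 (21%). With the slope as covariate, 0 passed in edgeR and 429 had an unadjusted p under 0.05 (2.66%). The slope differs between the drug groups, so the covariate removes drug difference and length difference together where they coincide.

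The group medians moved toward the median of all tested genes, which was -0.03 with offsets and -0.0012 with the covariate. That of cytosolic ribosomal proteins was 0.31 with offsets and 0.09 with the covariate, with 53 and 0 genes higher at an unadjusted p under 0.05. For oxidative phosphorylation it was 0.20 and 0.07, for mitochondrial ribosomal proteins 0.17 and 0.001, and for proteasome subunits 0.10 and -0.04. In the same order, genes higher at that p numbered 39 and 1, 20 and 0, and 10 and 0. Genes lower numbered 4 and 0, 3 and 0, and 1 and 0. The giant proteins had a median of -0.11 with offsets and -0.04 with the covariate, with 9 and 1 genes lower. DNA damage signalling and repair genes had a median of -0.14 with offsets, with 10 lower and 2 higher. With the covariate it was -0.03, with 1 lower and 0 higher, so the corrections differed for this group as they did for those above.

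**Figure D4:**
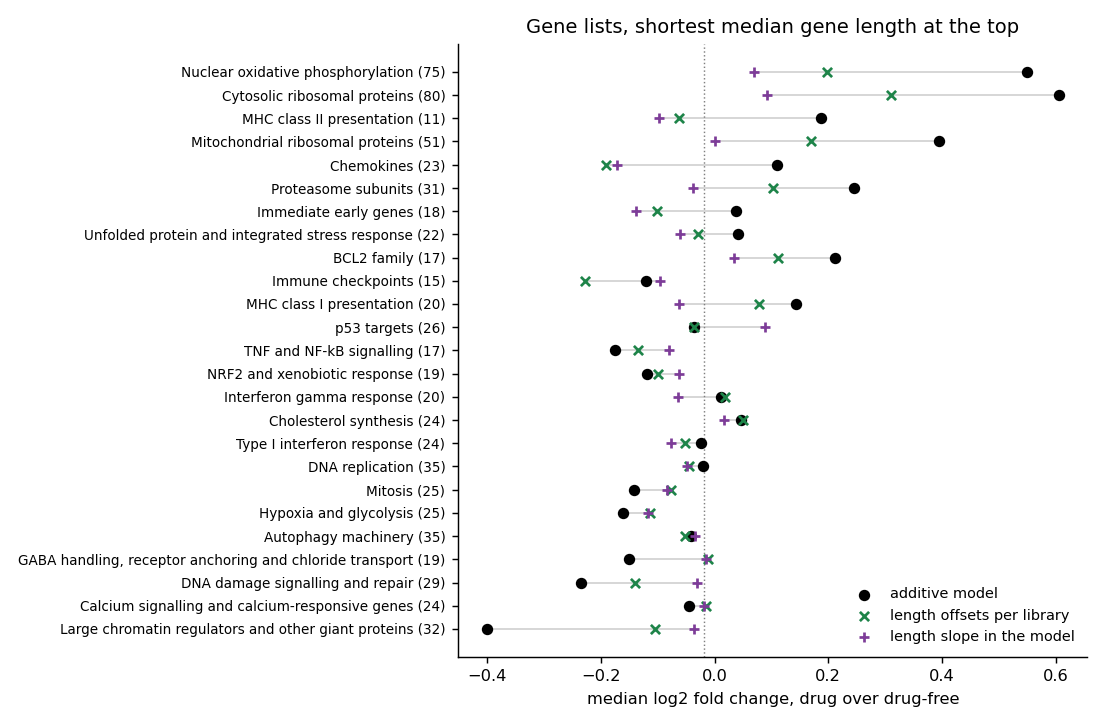
Median log2 fold change of drug-treated over drug-free tumours for gene groups other than cell type markers with at least 10 tested genes (numbers in parentheses), ordered by median gene length, in the additive model (points) and in both length-corrected fits (crosses and plus signs). The dotted line is the median of all tested genes. Cytosolic ribosomal and oxidative phosphorylation genes lie at 0.55 to 0.61 in the additive model and at 0.07 to 0.31 after correction. Mitochondrial ribosomal genes lie at 0.39 in the additive model and at 0.17 and 0.001 after correction.

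The 24 genes with the smallest p are described next as a description, since all missed the threshold, with an adjusted p of 0.131 in edgeR. Of these, 11 lay higher in drug-treated tumours, with a median length of 2485 bases, and 13 lower, with a median length of 6918 bases. All 24 had the same sign at both radiation levels, and all 24 kept their sign with an unadjusted p under 0.05 in both length-corrected fits. All 24 were called by edgeR without untreated replicate 4, by edgeR without QH-II-066 replicate 3 and by limma-voom, and 18 by DESeq2. A430106G13Rik, Mir17hg, Gm43267 and Gm13093 were among the genes that DESeq2 gave no adjusted p, so it could not call them. These fits share their libraries with the fit that chose the genes. The 2 libraries left out were named for lying on the side of the other drug group, and limma-voom gave them the lowest weights. These calls are therefore no separate support for the 24 genes.

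Kif26a, which encodes an atypical kinesin-like protein, lay lowest in p. It had 6.69, 7.85, 9.10 and 8.68 CPM in QH-II-066 tumours and 17.4, 15.6, 13.7 and 9.50 CPM in untreated tumours, and 7.11, 10.2, 10.1 and 7.89 CPM in tumours given 5 Gy with QH-II-066 against 18.2, 14.7, 11.6 and 14.5 CPM in those given 5 Gy. Of the 8 drug-treated libraries, 6 lay below all drug-free ones, and untreated replicate 4 was the lowest drug-free library. The log2 fold change was -0.77 ± 0.14, and -0.60 with length offsets and -0.47 with the length slope in the model. The gene spans 12:112146208-112181747 on the plus strand in mm10, the build of the deposited table, with 6918 bases of exon.

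Rsrp1, which encodes an arginine and serine rich protein, had a lowest, median and highest level of 127, 178 and 205 CPM in drug-treated tumours and of 76.4, 104 and 135 CPM in drug-free tumours. Levels in 5 of 8 drug-treated libraries exceeded all drug-free ones, and the log2 fold change was 0.68 ± 0.13, with 0.67 and 0.50 after length correction. Sufu, a negative regulator of Hedgehog signalling, had a lowest, median and highest level of 14.9, 20.03 and 26.8 CPM in drug-treated tumours and of 22.5, 26.6 and 35.3 CPM in drug-free tumours. Here 7 of 8 drug-treated libraries lay below all drug-free ones, QH-II-066 replicate 3 was the exception, and the log2 fold change was -0.46 ± 0.11.

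The other lower genes have varied roles, and their names are given as a description. They included the H3K27 demethylase Kdm6b (-0.58 ± 0.12), the circadian repressor Cry1 (-0.48 ± 0.10), the BCL6 corepressor Bcor (-0.37 ± 0.09), the splicing factor Sf1 (-0.31 ± 0.07), the SR-related factor Scaf1 (-0.40 ± 0.10) and the zinc finger proteins Zc3h4 (-0.52 ± 0.12) and Zc3h13 (-0.65 ± 0.16). The others were Ext1, an enzyme of heparan sulfate synthesis (-0.47 ± 0.10), the helicase Ascc3 (-0.45 ± 0.10), the phosphatase subunit Ppp6r3 (-0.33 ± 0.08) and the metalloprotease Mmp25 (-1.32 ± 0.32), which was low at a median of 0.324 CPM in drug-treated and 0.788 CPM in drug-free tumours. Exons of Kdm6b and Sf1 overlap Kdm6bos and Gm14966 on the other strand, whose reads could not be told apart if counted without strand. Cry1 has 3014 bases of exon and is the shortest of the lower genes. For Sf1, 7 of 8 drug-treated libraries lay below all drug-free ones, at 125 to 160 CPM in drug-treated and 156 to 208 CPM in drug-free tumours.

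Among the higher genes, the metabolic enzymes were the aldo-keto reductase Akr1c13 (0.50 ± 0.11), the mitochondrial enoyl-CoA hydratase Echs1 (0.37 ± 0.09) and the prostaglandin D2 synthase Ptgds (0.44 ± 0.10). Cd59a, an inhibitor of the complement attack complex, had 0.57 ± 0.14. The unnamed gene ENSMUSG00000089788 had 0.79 ± 0.18, but its exons overlap those of Cox20 on the other strand. Whether reads were counted by strand is not given, and counting without strand could not tell them apart. The remaining higher genes were A430106G13Rik, Mir17hg, Gm13093 (2.21 ± 0.52), 6720427I07Rik (0.85 ± 0.20) and Gm43267 (1.06 ± 0.23), of which the first 4 are annotated as long intergenic noncoding RNA (lincRNA) and Gm43267 is left unclassified by the annotation. Gm13093 was low, at 0.0313 to 0.540 CPM in drug-free and 0.537 to 3.72 CPM in drug-treated tumours, near the limit of counting given below. Its highest level was in replicate 4 of 5 Gy with QH-II-066, the library with the fewest counts (6994198).

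A430106G13Rik was the only tested gene with all 8 drug-treated libraries above all 8 drug-free ones (0.00621% of tested genes). It had 0.659, 0.668, 0.485 and 0.717 CPM in QH-II-066 tumours and 0.301, 0.231, 0.224 and 0.106 CPM in untreated tumours. In tumours given 5 Gy with QH-II-066 it had 1.16, 1.33, 0.597 and 1.49 CPM, against 0.178, 0.439, 0.0675 and 0.373 CPM in those given 5 Gy. QH-II-066 replicate 3 was the lowest drug-treated library and untreated replicate 4 lay among the drug-free ones, so both kept to their groups here. The log2 fold change was 1.81 ± 0.35, and 1.80 and 2.01 after length correction. Levels were near the limit of counting, since 3 counts correspond to between 0.0735 and 0.429 CPM by library. The exon overlaps Gm26936 on the minus strand, which could not be told apart if reads were counted without strand. Slc23a4 was the only gene with all drug-treated below all drug-free libraries (0.00621%), at 0 to 0.274 CPM in drug-treated and 0.282 to 0.576 CPM in drug-free tumours, and lies near that limit.

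Mir17hg, the host transcript of the miR-17-92 cluster, had 5.70, 7.55, 4.04 and 5.04 CPM in QH-II-066 tumours and 3.17, 2.85, 3.71 and 3.34 CPM in untreated tumours. In tumours given 5 Gy with QH-II-066 it had 10.1, 6.66, 3.52 and 7.00 CPM, against 2.78, 3.17, 3.41 and 3.49 CPM in those given 5 Gy. Of the 8 drug-treated libraries, 7 exceeded all drug-free ones, and the log2 fold change was 0.93 ± 0.19, with 0.94 and 0.68 after length correction. A430106G13Rik overlaps the hairpins of miR-181a-1 and miR-181b-1, and 6720427I07Rik holds that of let-7d on its own strand, so 3 of the 4 lincRNAs above overlap miRNA hairpins. The hairpins are short parts of these transcripts, no mature miRNA was measured, and reads over a hairpin fall on overlapping annotated genes.

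**Figure D5:**
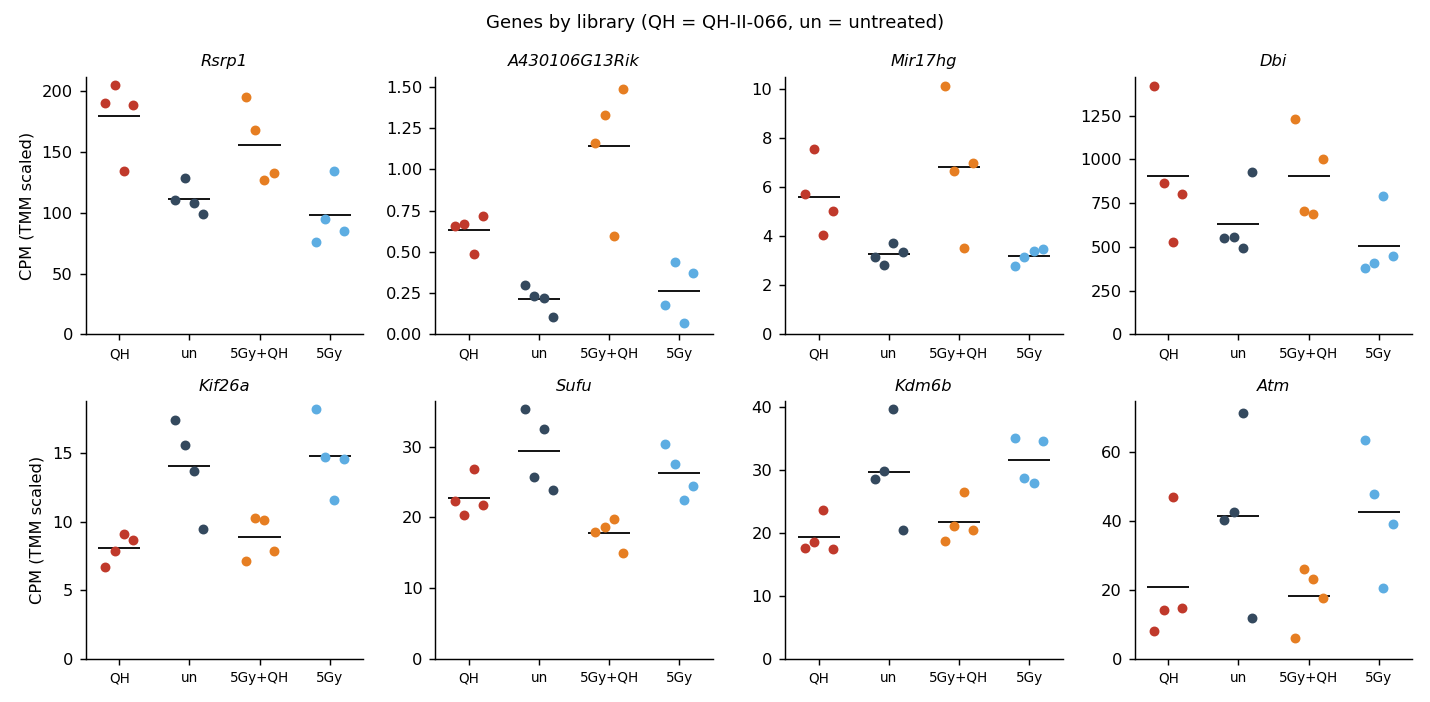
CPM, scaled by TMM, of 8 genes in each library (points) with the group mean (line), for QH-II-066 beside untreated and for 5 Gy with QH-II-066 beside 5 Gy. For A430106G13Rik all drug-treated points lie above all drug-free points, while for Dbi and Atm the groups overlap.

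Of the 15 mature miRNAs that lie inside these exons, 8 are shown, so that the hairpins which the 3 lincRNAs overlap can be recognised, with the seed (bases 2 to 8) in capitals, from RefSeq on GRCm38.p6. Those of Mir17hg lie in its exon 2 at 14:115043271-115046727 on the plus strand, which holds 6 hairpins and 11 mature sequences with 9 distinct seeds. miR-17-5p and miR-20a-5p share a seed, and miR-19a-3p and miR-19b-3p share another.
mmu-miR-17-5p: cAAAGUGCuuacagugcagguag
mmu-miR-20a-5p: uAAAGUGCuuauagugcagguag
mmu-miR-18a-5p: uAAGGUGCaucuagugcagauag
mmu-miR-19a-3p: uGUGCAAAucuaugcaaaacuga
mmu-miR-19b-3p: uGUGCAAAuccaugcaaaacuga
mmu-miR-92a-3p: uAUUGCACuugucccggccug
mmu-miR-181b-5p: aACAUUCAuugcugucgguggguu
mmu-let-7d-5p: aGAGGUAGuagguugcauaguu

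Of the receptor named in the study's title, few subunits were counted. Among 19 GABA-A receptor subunit genes, 3 passed the filter on low counts, and 16 did not, 2 of them with 0 counts in every library. Of those 16, Gabrp reached 5.36 CPM among drug-free tumours, with a median of 0 in both drug groups. The others stayed at or under 0.595 CPM. Gabra3, the alpha 3 subunit, had a lowest, median and highest level of 0.0784, 0.964 and 2.68 CPM in drug-treated tumours and of 0.0385, 0.499 and 2.35 CPM in drug-free tumours. The ranges overlapped almost wholly, and the log2 fold change was 0.77 ± 0.63 (adjusted p = 0.451 in edgeR), with 1.84 ± 0.66 in unirradiated and -0.19 ± 0.83 in irradiated tumours. Gabrd, the delta subunit, had 0.59 ± 0.36 and Gabrb1, the beta 1 subunit, -0.17 ± 0.54. Gabrq, the theta subunit, had counts in 1 of 8 drug-treated and 2 of 8 drug-free libraries, at no more than 0.0404 and 0.0940 CPM, within the limit of counting.

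Of 25 genes of GABA handling, receptor anchoring and chloride transport, 19 were tested, and 6 had a log2 fold change above 0. At an unadjusted p under 0.05, 2 were higher and 3 lower, with a median of -0.15. These counts lie near the shares of all tested genes, 12.2% higher and 14.2% lower, and are no result about the group. Dbi, whose protein binds GABA-A receptors and acyl-CoA, had 1418, 867, 526 and 804 CPM in QH-II-066 tumours and 549, 558, 492 and 928 CPM in untreated tumours. In tumours given 5 Gy with QH-II-066 it had 1231, 705, 689 and 1005 CPM, against 379, 408, 789 and 447 CPM in those given 5 Gy. The log2 fold change was 0.68 ± 0.22, and it was 0.39 with length offsets and 0.11 with the slope in the model. Gphn, the scaffold protein gephyrin that anchors receptors (-0.48 ± 0.14), the taurine transporter Slc6a6 (-0.74 ± 0.23) and the trafficking ATPase Nsf (-0.22 ± 0.09) lay lower, and with the slope in the model they were at -0.11, -0.11 and -0.06. Gabarap, the receptor-associated protein that also works in autophagy, had 0.31 ± 0.12 in the additive model and -0.0032 with the slope in the model. Slc12a2, a chloride importer, had 0.13 ± 0.30, and QH-II-066 replicate 3 alone had 74.8 CPM, against 15.2 to 22.6 CPM in the other drug-treated and 16.1 to 28.2 CPM in the drug-free tumours. Without that library its log2 fold change was -0.29.

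Genes of the melanocyte lineage gave no common direction. Of 15 tested pigmentation genes, 6 had a log2 fold change above 0, with a median of -0.05. At an unadjusted p under 0.05, 3 were higher and 0 lower, against 12.2% higher and 14.2% lower of all tested genes. Mlana, a melanosome protein with 623 bases of exon, had 0.60 ± 0.20 in the additive model and 0.01 with length offsets. Slc45a2, a melanosome transporter, had 0.36 ± 0.14 and Pmel, which forms the melanosome fibrils, 0.22 ± 0.10. Mitf, the lineage transcription factor, had -0.05 ± 0.14, at 332 to 570 CPM in drug-treated and 317 to 694 CPM in drug-free tumours.

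Counts of the groups that follow are at an unadjusted p under 0.05, at which 12.2% of all tested genes were higher and 14.2% lower, and a count near those shares is no result about a group. DNA replication genes were near them, with 5 members higher and 6 lower of 35, among them Pola1, the catalytic subunit of DNA polymerase alpha, at -0.48 ± 0.15 and Rfc4 and Orc6, parts of the clamp loader and of the origin recognition complex, at 0.41 ± 0.14 and 0.40 ± 0.14. Mitosis genes had 3 higher and 8 lower of 25, and the members with the smallest p were the kinetochore protein Cenpf (-0.44 ± 0.12), the spindle factor Tpx2 (-0.23 ± 0.08), the kinesin Kif11 (-0.36 ± 0.12) and the checkpoint kinase Bub1b (-0.29 ± 0.10). Mki67, a marker of proliferating cells, had a lowest, median and highest level of 272, 287 and 310 CPM in drug-treated tumours and of 278, 310 and 429 CPM in drug-free tumours, with a log2 fold change of -0.18 ± 0.09 (adjusted p = 0.216 in edgeR) and ranges that overlapped.

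Stress and metabolic groups are read against the same shares of 12.2% higher and 14.2% lower. Of 25 hypoxia and glycolysis genes, 5 were lower and 0 higher at an unadjusted p under 0.05, with a median of -0.16, and Hk1 and Hk2, which phosphorylate glucose, had -0.49 ± 0.12 and -0.36 ± 0.12. Hk1 had a lowest, median and highest level of 166, 216 and 285 CPM in drug-treated tumours and of 223, 310 and 346 CPM in drug-free tumours, with 4 drug-treated libraries below all drug-free ones. Autophagy genes had 4 higher and 11 lower of 35, with the smallest p for the cargo receptor Nbr1 (-0.39 ± 0.12) and Uvrag (-0.53 ± 0.16). With length offsets 5 were higher and 5 lower, and with the slope as covariate 0 were higher and 2 lower. Cholesterol synthesis genes had 6 higher and 3 lower of 24, and BCL2 family genes 5 higher and 1 lower of 17, with Bcl2l12 at 0.42 ± 0.12 and Bcl2l13 at -0.46 ± 0.15. The p53 targets had 3 higher and 1 lower of 26, with the higher ones near the share of all genes. Cdkn1a, the p21 inhibitor of cyclin-dependent kinases, had -0.06 ± 0.08, and Mdm2, the p53 ubiquitin ligase, -0.12 ± 0.09. In the TNF and NF-kB group 3 of 17 were lower, near the share of all genes, namely the subunit genes Nfkb1 (-0.46 ± 0.15), Nfkb2 (-0.19 ± 0.07) and Rel (-0.45 ± 0.17), while 0 were higher.

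Few immune genes were past an unadjusted p of 0.05 over all libraries. Of 16 T cell genes, 1 was higher (Lat, an adaptor of T cell receptor signalling, 0.71 ± 0.30) and 1 lower (the co-stimulatory receptor Cd28, -1.13 ± 0.39) at an unadjusted p under 0.05. Of 13 CD8 and cytotoxic genes none was past that p in either direction, and the summed CPM ran between 26.5 and 69.8 in drug-treated and between 28.9 and 97.2 in drug-free tumours. Cd8a had -0.10 ± 0.28, the granzyme Gzmb -0.31 ± 0.31, interferon gamma (Ifng) 0.13 ± 0.37 and the checkpoint ligand Cd274 -0.19 ± 0.20, each with an adjusted p of at least 0.55 in edgeR and with overlapping ranges. The same count of 0 in both directions held for the type I interferon (24 genes), interferon gamma (20), MHC class I (20), MHC class II (11), checkpoint (15), chemokine (23), macrophage (16) and NK cell (8) groups. Without untreated replicate 4, edgeR called 4 MHC class I, 2 type I interferon, 2 interferon gamma and 1 MHC class II genes higher. In that fit 10.1% of all tested genes were called higher. Without QH-II-066 replicate 3 it called 2 type I interferon, 1 interferon gamma and 1 MHC class II genes lower, against 6.09% of all genes. The checkpoint, chemokine, macrophage and NK cell groups had 0 calls in both fits. The medians of some of these groups had opposite signs at the radiation levels, with macrophage genes at 0.49 in unirradiated and -0.48 in irradiated tumours and 10 dendritic cell genes, of which 1 was higher and 1 lower over all libraries, at 0.51 and -0.60. Among 8 neutrophil genes 2 were higher, S100a8 (2.60 ± 0.88) and S100a9 (1.83 ± 0.82), and replicate 2 of 5 Gy with QH-II-066 alone had 33.8 and 37.5 CPM, against at most 2.81 and 2.83 CPM in the other drug-treated tumours.

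Markers of host tissue were uneven between libraries. Fibroblast and matrix genes had a median log2 fold change of 0.57 in unirradiated and of -1.05 in irradiated tumours, skeletal muscle genes one of 2.65 and -1.24, and adipocyte genes one of 3.47 and -1.74. Muscle genes summed to 53.2, 48.0, 108 and 1773 CPM in QH-II-066 tumours, against 55.2 to 192 CPM in untreated tumours, so replicate 4 alone was high. Adipocyte genes summed to 143, 316, 1714 and 785 CPM in QH-II-066 tumours, against 75.1 to 199 CPM in untreated tumours, and replicates 3 and 4 were the highest. Col1a1, a fibrillar collagen, had -0.31 ± 0.34 over all libraries, Krt5 -0.61 ± 1.58 and the muscle creatine kinase Ckm 0.85 ± 1.80, which was -1.66 without QH-II-066 replicate 4. Fn1, fibronectin, had -0.65 ± 0.22. Without the 5 libraries with skin transcripts, the rank correlation of fold change with length was -0.43. In that fit replicate 1 was the only library left of 5 Gy with QH-II-066, and replicates 1 and 3 were left of 5 Gy. That replicate 1 of the combined group had the lowest length slope of all libraries, -0.248, so the irradiated part of this fit rests on it.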

How the data were processed

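Tumour RNA was sequenced in 16 libraries after transcriptome capture, per the labels' protocols. Raw counts per gene were deposited by the authors in 1 table, made with featureCounts 1.6.0 per the file headers, from STAR 2.4.1a alignments to mm10 per the submitters' processing notes, and each library is 1 column. Counting by strand is not given in the sources used here. Of 46078 genes, 45143 had a symbol by their ID. Genes were filtered with filterByExpr on the 4 groups, scaled by TMM and tested with edgeR 4.0.16 (robust quasi-likelihood test, drug plus radiation, Benjamini-Hochberg adjustment, threshold 0.05) in R 4.3.3. DESeq2 1.42.0 and limma-voom with sample weights (limma 3.58.1) were alternatives. Log2 CPM used a prior count of 2. Each ± beside a log2 fold change is its SE. Length slopes used genes above a mean log2 CPM of 3, length offsets a lowess span of 0.3, and library measures an exact permutation test within radiation levels. The edgeR fit, the slopes, the offsets and the permutation test were tested on simulated data. Limits of counting cover counting error only, while each SE comes from the fit and includes the spread between libraries.

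Named genes were those past the threshold or, as here, the 24 with the smallest p, up to 4 members with the smallest p of each list described, members whose groups do not overlap, and a set of fixed genes. Members and lists were chosen with earlier results of these data known. The alternatives on skin, muscle, GC and protein-coding genes were chosen after seeing the data. Libraries of a group differed by more than sampling noise (chi-square per degree of freedom of at least 17.6), so each counted as 1 sample. Values of 2 genes that this rule names are not reported here.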

Additional observations from a re-analysis of the deposited data

Results flagged for a closer look

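Among 204 groups of 4 libraries examined, 10 had a library far from the other 3 (4.9%), and chance gives about 1 in 20. Values here are log2 CPM, and the number after each is the library's gap to the nearest other divided by the range of the group. QH-II-066 replicate 3 was high for Slc12a2 (6.23, against 4.11 to 4.25, 0.937), Cdkn1a (7.71, against 7.55 to 7.56, 0.906) and Krt5 (1.04, with the other 3 listed at no count, 1). The same library was low for ENSMUSG00000089788 (3.44, against 3.84 to 3.88, 0.9). Untreated replicate 1 was high for Krt5 (-1.31, with the other 3 listed at no count, 1) and for the skin epithelium score (-2.0045, against -2.60 to -2.52, 0.859). Replicate 1 of 5 Gy was high for Mdm2 (5.79, against 5.72 in the others, 0.887) and Mki67 (8.49, against 8.13 to 8.18, 0.848). Replicate 2 of 5 Gy, which holds skin transcripts, was high for Gzmb (4.31, against 2.50 to 2.78, 0.847), and replicate 3 of 5 Gy was low for Slc12a2 (4.22, against 4.77 to 4.82, 0.906).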

How the results depend on the processing

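The count of 0 genes in edgeR became 598 higher and 758 lower with DESeq2 and 2406 and 2853 with limma-voom, and between 0 and 1624 higher and between 0 and 1637 lower when a library was left out. Those with calls were untreated replicate 4 (1624 and 1637) and QH-II-066 replicate 3 (978 and 981). Genes at an unadjusted p under 0.05, 4249 in the additive model, numbered 6904 with limma-voom, 987 in unirradiated tumours alone, 978 with the GC slope as covariate, 429 with the length slope and 549 with both, and between 2869 and 5862 when a library was left out. For the interaction, DESeq2 called 2 higher and 59 lower, and with the length slope 1746 genes had an unadjusted p under 0.05. The difference in length slope stayed between -0.21 and -0.15 when a library was left out, with an exact permutation p of 0.0502 without QH-II-066 replicate 1. The rank correlation with length was 0.0824 with length offsets. The cause of these changes was not tested.

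Replicate numbers did not pair the libraries: deviations of 24 same-numbered pairs correlated between -0.78 and 0.56, and 3 of 16 libraries correlated best with their own number. With the replicate block 4274 genes had an unadjusted p under 0.05 and 0 passed, and with block and length slope 480.

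Genes not past the threshold changed sign as follows, in log2 fold change. With the length slope as covariate, Gabarap had -0.0032, Cd274 0.0411, Mdm2 0.0176, Mitf 0.19, Krt5 4.54 and Gabrd -0.0567. With length and GC slopes, Gabarap had -0.0173, Cd274 0.0875, Mitf 0.14, Krt5 4.83, Atm 0.0143 and Gabrd -0.088. With block and length slope, Gabarap had -0.0263, Cd8a 0.13, Cd274 0.10, Mitf 0.0883, Krt5 4.21, Atm 0.0077, Gabrd -0.17 and Gabrb1 0.35. With the block alone, Ckm had -1.19. With length offsets, Ifng had -0.18, Mki67 0.0677, Mitf 0.10, Ndufa4 -0.0265 and Gabrb1 0.10. With the GC slope, Mitf had 0.16 and Krt5 0.22. In irradiated tumours, Gabra3 had -0.19, Slc12a2 -0.34, Ifng -0.0521 and Ckm -1.18. In unirradiated tumours, Cd8a had 0.26, Cd274 0.18, Cdkn1a 0.0119 and Col1a1 0.54. With limma-voom, Slc12a2 had -0.25, Cd8a 0.0313, Col1a1 0.0812 and Ckm -1.36. Without the libraries with skin transcripts, Cd8a had 0.32, Cd274 0.047, Col1a1 0.22, Krt5 2.64 and Gabrb1 0.29. With 4 group means, Krt5 had 0.49. With DESeq2, Krt5 had 0.61. With the muscle score, Krt5 had 1.70. With the skin score, Krt5 had 0.69. Of the genes that changed sign when a library was left out, the lowest and highest values were -0.20 and 0.12 for Cd8a, -0.082 and 0.0044 for Cdkn1a, -1.66 and 1.44 for Ckm, -0.38 and 0.0154 for Gabrb1, -0.0283 and 0.31 for Ifng, -1.37 and 0.0968 for Krt5, -0.11 and 0.036 for Mitf and -0.29 and 0.22 for Slc12a2.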

Other observations

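Transcripts outside the protein-coding class lay higher in drug-treated tumours. The median log2 fold change was 0.19 for 329 lincRNAs, 0.17 for 352 antisense transcripts and 0.24 for 214 processed transcripts, against -0.04 for 14117 protein-coding genes. With length offsets these medians were 0.01, -0.05, 0.12 and -0.02, and with the length slope as covariate 0.16, 0.12, 0.15 and -0.0072. Processed pseudogenes, with a median length of 586 bases, had a median of 0.41 in the additive model. It was -0.13 with offsets and 0.07 with the length slope as covariate. Their counts cannot be told apart from those of their parent genes.

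Of 105 tested genes with a miRNA hairpin in an exon on the same strand, 49 had a log2 fold change above 0, and 17 were higher and 17 lower at an unadjusted p under 0.05, against 12.2% higher and 14.2% lower of all tested genes. The 85 protein-coding hosts had 9 higher and 17 lower and a median of -0.05. The other 20 had 8 higher and 0 lower and a median of 0.41, which was 0.20 with length offsets and 0.24 with the length slope as covariate. This set was chosen after Mir17hg, A430106G13Rik and 6720427I07Rik had been seen and contains them, so its values are a description.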
